A study of Sus scrofa with 8 samples.

Results

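Genes of the swine major histocompatibility complex (SLA) and of antigen presentation were described in lung of Tibetan and Duroc pigs. The 10 genes listed for this set were SLA-1, SLA-DRA, SLA-DRB1, SLA-DQA1, SLA-DQB1, SLA-DMA, SLA-DMB, CD74, B2M and TAP1. A probe was taken as a member when its target entry or the study's own annotation gave it 1 of these symbols and its spot was well above background on at least 1 array. This gave 22 probes of 8 genes, of 34406 probes tested in all, which include 3828 named genes. SLA-1 and B2M had no probe under this rule, so the classical class I chains of the set were not measured. The 22 probes were SLA-DRB1 and SLA-DQA1 with 5 each, SLA-DRA with 4, SLA-DMA, CD74 and TAP1 with 2 each, and SLA-DQB1 and SLA-DMB with 1 each. All 22 were well above background on all 8 arrays, so the filter on dim spots removed none of them, and no member spot was marked as an outlier or as saturated.

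The arrays were 1-color Agilent arrays of female pigs killed at 6 months of age. Tibetan pigs native to high altitude (3500 m) formed group TH, and Duroc pigs native to low altitude (40 m) formed group DL. Tibetan piglets moved to low altitude at 1 month of age formed group TL, and Duroc piglets moved to high altitude at the same age formed group DH. Each group thus carries its breed's whole genome, and the migrated groups differ from the native ones also in having been moved. The 8 arrays were 2 per group, from pigs drawn at random among the 8 of each group, and no sibship was intended among the piglets.

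Class II molecules are pairs of an alpha and a beta chain that display peptides from engulfed material to helper T cells. They are found mainly on dendritic cells, macrophages and B cells, and in lung also on alveolar epithelium. CD74, the invariant chain, occupies their groove until the DM pair (SLA-DMA and SLA-DMB) helps exchange its remnant for a peptide. TAP1 is a subunit of the transporter that carries peptides of the cytosol to class I molecules. Interferon gamma is known to raise all of these genes. In the annotation of Sscrofa11.1 the SLA genes measured here and TAP1 follow each other as SLA-DRA, SLA-DRB1, SLA-DQA1, SLA-DQB1, TAP1, SLA-DMB and SLA-DMA, and CD74 lies on another chromosome.

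TH and DL arrays lay on slide 1 and DH and TL arrays on slide 2. The breed and altitude effects are therefore means of differences within slides, whereas the interaction and every comparison of 2 groups that share a breed or an altitude cross the slides, so that slide and interaction cannot be told apart. The TL arrays stood apart, with a median raw spot signal of 324 and 333.5 against 207.5 to 230 on the other 6 arrays. Among bright probes, the deposited log2 value rose by 1.13 per unit of log2 processed signal on the TL arrays and by 0.96 to 0.97 elsewhere. The cause of this steeper rise was not tested. The surfactant genes SFTPA1, SFTPB, SFTPC and SFTPD, made by alveolar type II cells, averaged 16.8 to 17.3 on the log2 scale on every array. The SD between both arrays of a group was at most 0.139 (log2) in the 88 pairs of member probe and group, with a median of 0.0186. P-values here measure only this spread between arrays, and 2 pigs per group limit the precision. The study's methods describe 2 pigs per group and 1 sample on each array, with the animals hybridized individually. The spread between both arrays of a group thus holds differences between pigs and between arrays, which cannot be told apart.

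**Figure D1:**
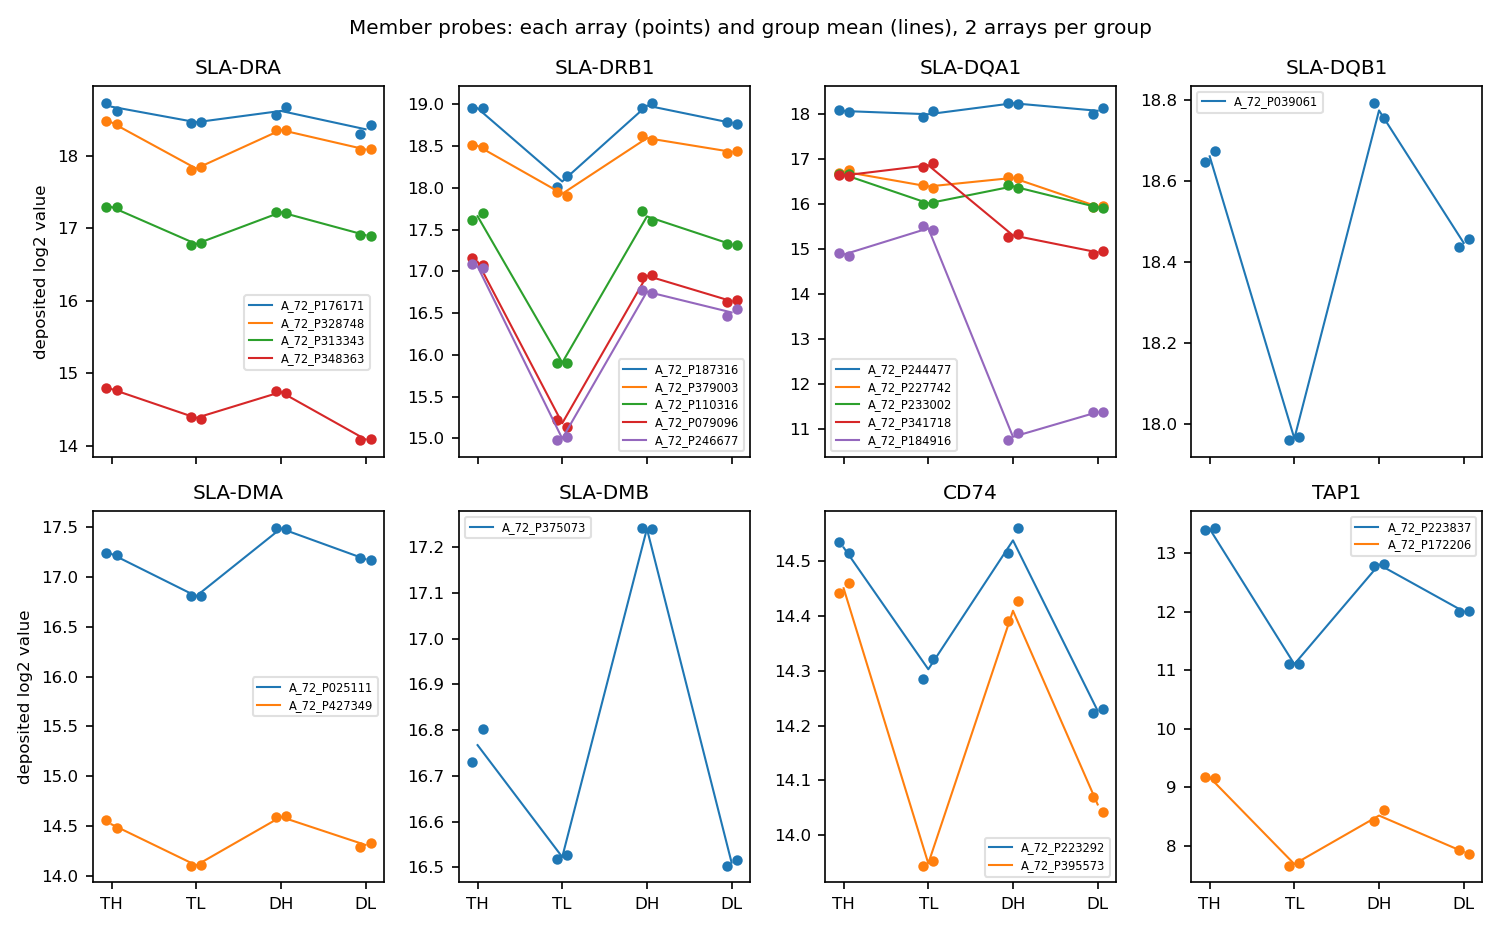
Deposited log2 values of the 22 member probes (vertical axis, log2) in groups TH, TL, DH and DL (horizontal axis), with 1 panel per gene; points are the 2 arrays of a group and lines join the group means. In 19 of 22 probes the 4 high-altitude arrays lie above the 4 low-altitude arrays, and 2 SLA-DQA1 probes instead separate Tibetan from Duroc pigs.

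Most probes of the class II chains, CD74 and TAP1 read higher at high altitude. All 4 high-altitude arrays lay above all 4 low-altitude arrays in 19 of 22 probes, where 11.9% of all tested probes did so, and none had the reverse order, which 9.09% did. The altitude effect, the mean difference between high and low altitude over both breeds, was positive in 21 of 22 probes with a median of 0.47 (log2), against 0.01 over all probes tested. Calls were made by limma with Benjamini-Hochberg adjustment over all tested probes, at the FDR below 0.0001 of the study's methods. Of the members, 16 of 22 probes (72.7%) rose and 0 fell. Of all tested probes, 26.3% were called, and 14.0% of all tested probes were called higher. Among all tested probes with a RefSeq target, as 20 of the 22 members have, 25.2% were called higher. Each of the 8 genes had at least 1 probe that rose. In bulk tissue, fewer cells of a type and less RNA per cell cannot be told apart.

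TAP1 had the widest difference. Its brighter probe (A_72_P223837) read 13.41 and 13.43 in TH, 12.79 and 12.83 in DH, 12.01 and 12.01 in DL, and 11.10 and 11.11 in TL. The order of the groups was TH, DH, DL and TL, and no neighbours in it overlapped. The altitude effect was 1.56 ± 0.02 (log2, SE, 2.95-fold, adjusted p = 2.22e-06 by limma). The second probe (A_72_P172206) read 9.18 and 9.16 in TH, 8.42 and 8.61 in DH, 7.93 and 7.86 in DL, and 7.66 and 7.71 in TL. It gave the same order of groups and an altitude effect of 1.05 (2.08-fold, adjusted p = 3.14e-05 by limma). TAP1 A_72_P223837 was also the only member probe, apart from the 2 SLA-DQA1 probes described below, to pass for TH against DH, at 0.61 (1.53-fold, adjusted p = 4.28e-05 by limma).

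SLA-DRB1, the beta chain of the DR pair, rose in all 5 of its probes, but not by like amounts. Probe A_72_P246677 read 17.08 and 17.03 in TH, 16.77 and 16.74 in DH, 16.47 and 16.54 in DL, and 14.98 and 15.02 in TL. Probe A_72_P187316, the brightest, read 18.95 and 18.95 in TH, 18.95 and 19.02 in DH, 18.79 and 18.76 in DL, and 18.01 and 18.14 in TL. In both, TL lay far below the other 3 groups, which stood close together. The altitude effect was 1.15 ± 0.03 (2.23-fold, adjusted p = 4.86e-06 by limma) at the former and 0.54 ± 0.04 (1.46-fold, adjusted p = 9.51e-05) at the latter. The probes A_72_P110316 and A_72_P079096 gave 1.04 and 1.12, and A_72_P379003 gave 0.37. All 5 probes have the same RefSeq target, and their profiles over the 8 arrays correlated at r = 0.96 to 1.00 while the size of the difference varied between them. TL was the lowest group and DL the next in all 5, and A_72_P187316 and A_72_P379003 read slightly higher in DH than in TH.

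SLA-DRA, the alpha chain that pairs with the DR beta chain, rose in 3 of 4 probes. Probe A_72_P313343 read 17.30 and 17.29 in TH, 17.23 and 17.22 in DH, 16.91 and 16.90 in DL, and 16.78 and 16.79 in TL. High-altitude pigs of both breeds lay together and above both low groups. Its altitude effect was 0.41 ± 0.02 (1.33-fold, adjusted p = 1.53e-05 by limma), and A_72_P328748 and A_72_P348363 gave 0.45 and 0.53. The brightest probe, A_72_P176171, read 18.73 and 18.63, 18.57 and 18.67, 18.31 and 18.43, and 18.46 and 18.48 in the same order of groups. Its difference of 0.23 ± 0.05 did not pass (adjusted p = 0.00642 by limma), and it had wider gaps between arrays of a group than the other 3 in every group but TL.

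The DQ pair was split by probe. SLA-DQB1, the beta chain, has 1 probe (A_72_P039061), which read 18.65 and 18.67 in TH, 18.79 and 18.75 in DH, 18.44 and 18.46 in DL, and 17.96 and 17.97 in TL. The high groups lay above the low groups without overlap, and it rose by 0.51 ± 0.02 (1.43-fold, adjusted p = 1.32e-05 by limma). For SLA-DQA1, the alpha chain, A_72_P227742 and A_72_P233002 rose by 0.49 and 0.55 (adjusted p = 3.2e-05 and 1.78e-05 by limma). The other 3 did not pass. The brightest, A_72_P244477, differed by 0.12 (95% interval -0.004 to 0.24, adjusted p = 0.0751 by limma). A_72_P341718 differed by 0.08 (adjusted p = 0.0804 by limma). A_72_P184916 differed by -0.57 (adjusted p = 0.000199 by limma), the only negative altitude coefficient of the 22.

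SLA-DMA and SLA-DMB, the chains of the peptide exchanger, and CD74 had altitude effects of 0.27 to 0.49. SLA-DMA A_72_P025111 read 17.24 and 17.22 in TH, 17.49 and 17.48 in DH, 17.19 and 17.17 in DL, and 16.81 and 16.81 in TL. It rose with altitude by 0.37 ± 0.02 (1.29-fold, adjusted p = 2.27e-05 by limma), and DL stood just under TH. The dimmer SLA-DMA probe, A_72_P427349, differed by 0.35 without passing (adjusted p = 0.000117).

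SLA-DMB A_72_P375073 read 16.73 and 16.80 in TH, 17.24 and 17.24 in DH, 16.50 and 16.52 in DL, and 16.52 and 16.53 in TL. DH was the highest group and both low groups coincided to within 0.03 (log2), with an altitude effect of 0.49 ± 0.02 (1.40-fold, adjusted p = 2.6e-05 by limma). CD74 A_72_P395573 read 14.44 and 14.46 in TH, 14.39 and 14.43 in DH, 14.07 and 14.04 in DL, and 13.94 and 13.95 in TL. It rose by 0.43 ± 0.02 (1.35-fold, adjusted p = 2.15e-05). The brighter CD74 probe, A_72_P223292, had its arrays in the same 2 separate sets, 14.51 to 14.56 at high and 14.22 to 14.32 at low altitude, and its difference of 0.27 fell short of the threshold (adjusted p = 0.000159 by limma).

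**Figure D2:**
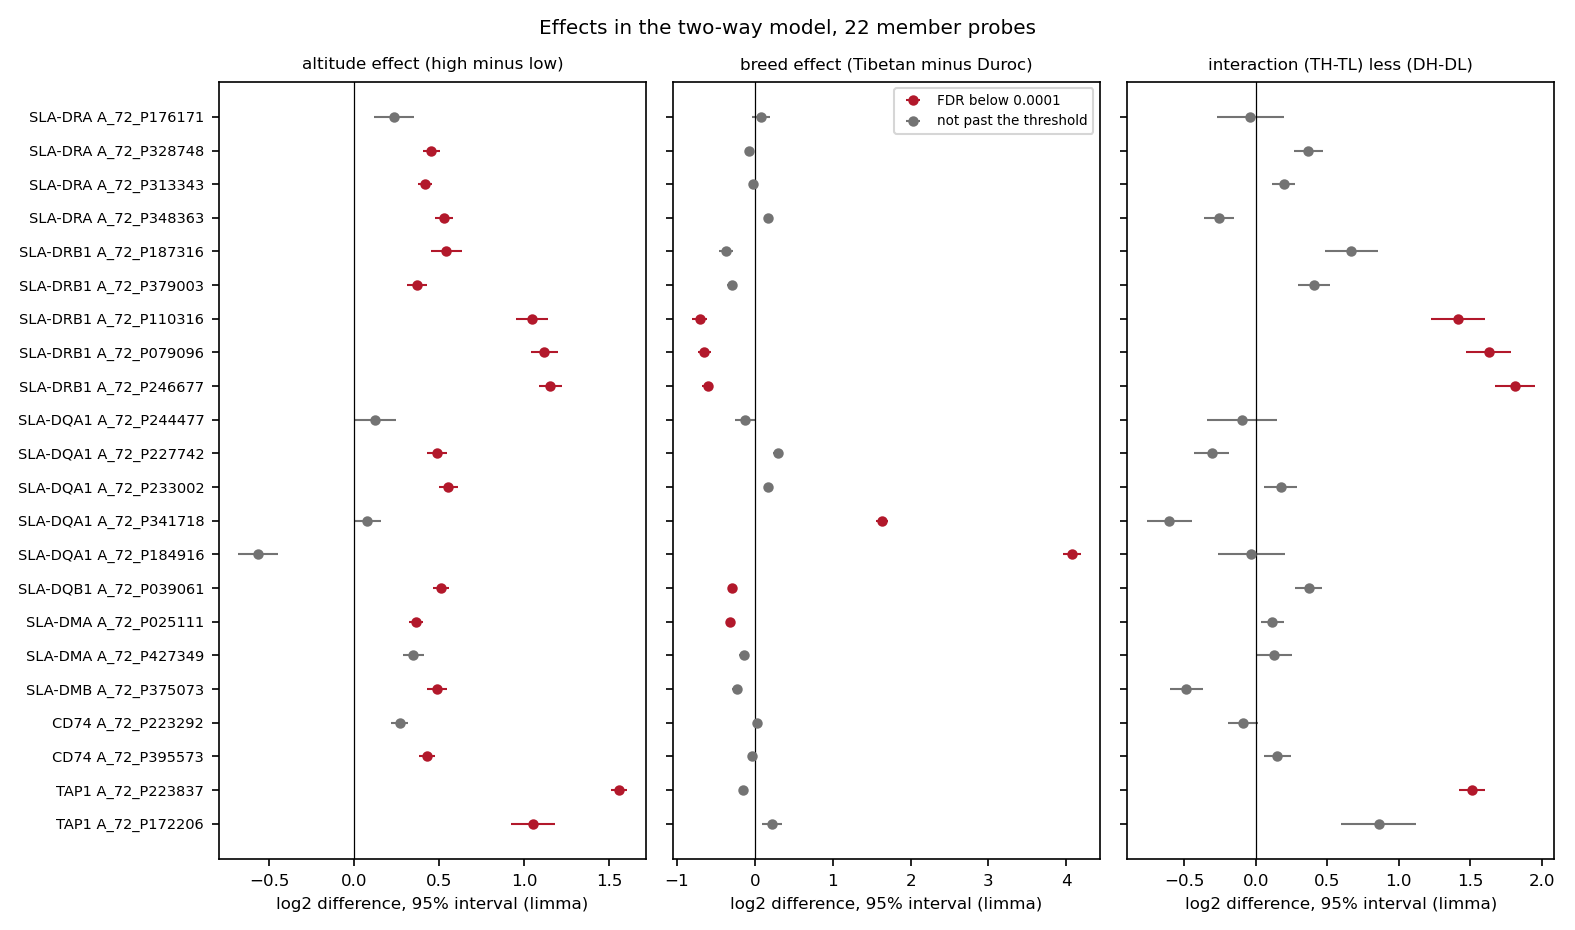
Altitude effect, breed effect and interaction (horizontal axes, log2 difference) of each member probe (rows) with 95% intervals from limma; red marks an FDR below 0.0001. Altitude effects lie to the right of 0 in 21 of 22 rows, breed effects lie between -0.71 and 0.29 except in 2 SLA-DQA1 rows at 1.63 and 4.07, and the 4 called interactions belong to SLA-DRB1 and TAP1.

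High-altitude arrays lay above low-altitude arrays within both slides in 19 of 22 probes (20.0% of all tested probes) and within both breeds in 19 (18.0%), the same 19 probes as above, for which the order over all arrays already fixes both. Within slide 1, TH against DL, 8 of 22 probes passed and all were higher, against 14.1% of all probes called, 6.9% higher. Within slide 2, TL against DH, 15 passed, 13 of them lower in TL, against 33.9% of all probes (15.1% higher and 18.8% lower), and the 2 higher ones were the SLA-DQA1 probes A_72_P341718 and A_72_P184916. The median of the 22 was 0.38 for TH minus DL and -0.51 for TL minus DH, against -0.01 and -0.09 over all probes. In these within-slide pairs breed and altitude differ together.

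Within Tibetan pigs, TH against TL, 14 of 22 probes rose and 0 fell, with a median of 0.51, against 37.1% of all probes called, 20.5% higher, and a median of 0.11. Within Duroc pigs, DH against DL, 4 of 22 rose and 0 fell, against 9.95% of all probes called, 5.83% higher: SLA-DMB by 0.73, SLA-DRA A_72_P348363 by 0.65, SLA-DQA1 A_72_P227742 by 0.64 and TAP1 A_72_P223837 by 0.80. The Duroc difference was positive in 21 of 22 probes, and both DH arrays lay above both DL arrays in 21, where 38.8% of all probes did so. Both comparisons cross the slides. With any 1 array left out, the Duroc difference stayed positive in 21 of 22 probes. With the raw signal normalized anew, none of the 4 Duroc calls was kept. The share of all probes called in that setting is not given here. Both DH arrays still lay above both DL arrays in 21 probes there, where 39.1% of all probes did so.

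**Figure D3:**
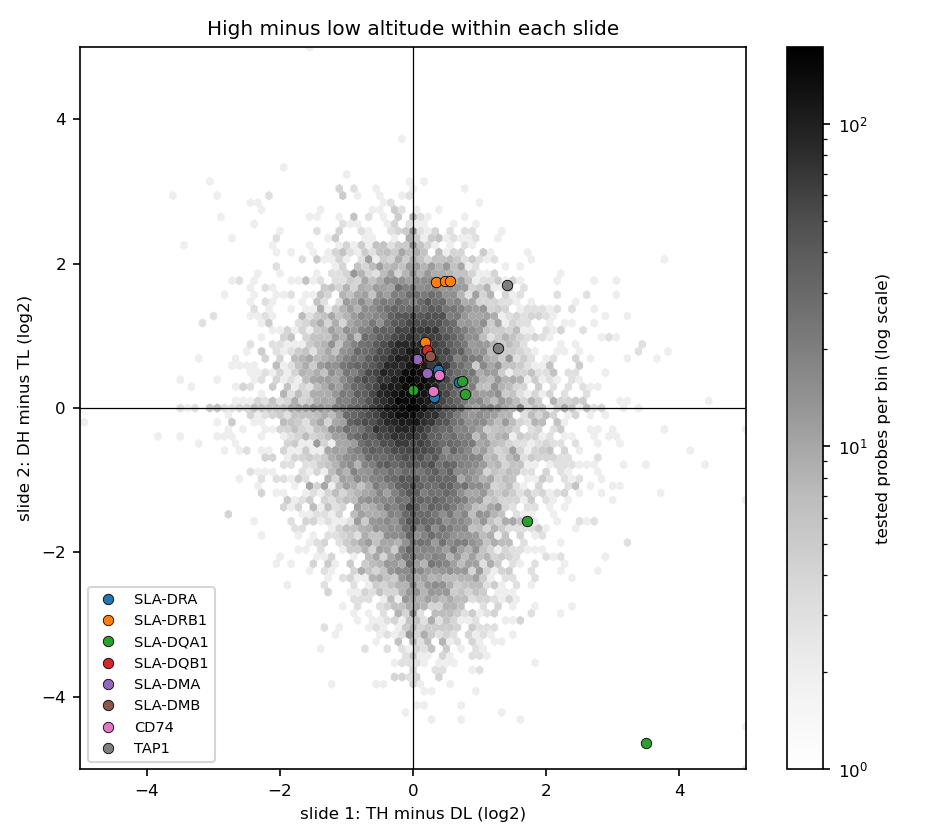
High minus low altitude within slide 1 (horizontal axis, TH minus DL, log2) and within slide 2 (vertical axis, DH minus TL, log2); colored points are the 22 member probes and grey hexagons count all tested probes, with values beyond 5 placed at the edge. Members lie in the upper right apart from 2 SLA-DQA1 probes at the lower right and 1 at 0 on slide 1.

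The number of altitude calls rested on all 8 arrays. With any 1 array left out, between 1 (without either TL array) and 4 (without either DH array) of 22 probes passed, 2 without either DL array and 3 without either TH array, while 3.57% to 6.96% of all probes did. The coefficient stayed positive in 21 of 22 probes each time, and TAP1 A_72_P223837 passed in all 8. Scaling each array to its 75th percentile gave a median of 0.91 and 19 calls. All high-altitude arrays lay above all low-altitude arrays in 20 probes there, against 14.6% of all probes. Normalizing the raw spot signal anew gave a median of 0.46 and 6 calls, with 18 probes in that order against 11.3%. The share of all probes called in these settings is not given here, so the counts are no result about the members.

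**Figure D4:**
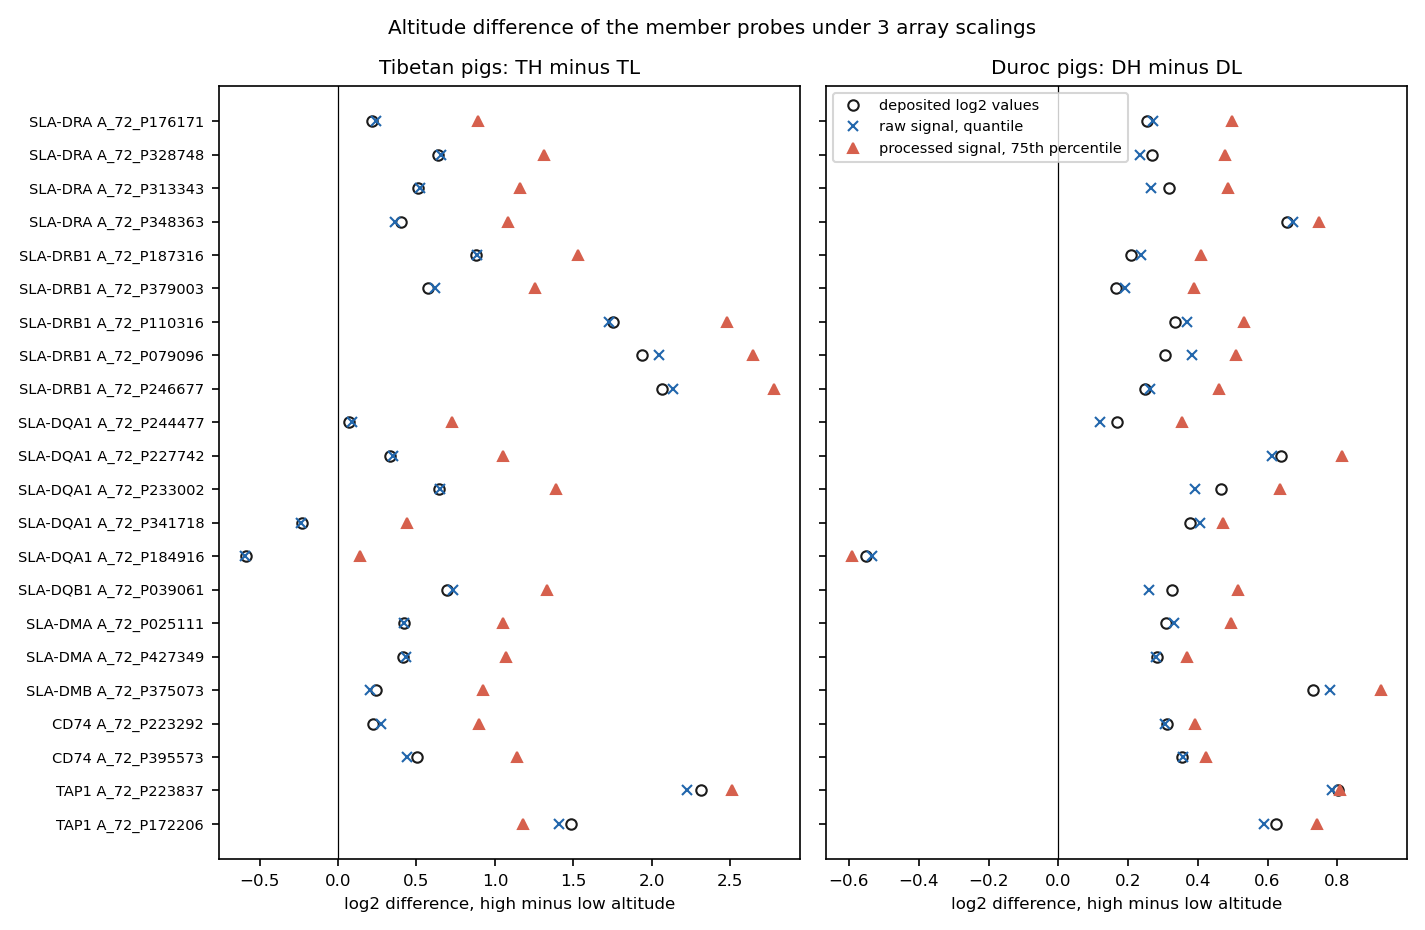
Difference between high and low altitude (horizontal axes, log2) of each member probe (rows) in Tibetan pigs (left) and Duroc pigs (right) under 3 scalings of the arrays. Scaling to the 75th percentile shifts nearly every Tibetan value to the right, and every SLA-DRA, SLA-DRB1, SLA-DQB1, SLA-DM, CD74 and TAP1 value stays above 0 under all 3.

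Between the breeds, 2 SLA-DQA1 probes were far higher in Tibetan pigs, while the share of members called, 31.8%, was near that of all probes. In the breed effect, Tibetan minus Duroc over both altitudes, 7 of 22 probes passed, 2 higher and 5 lower, against 27.4% of all probes (12.8% higher and 14.6% lower). The coefficient was negative in 14 of 22 probes, with a median of -0.10 against -0.07 over all probes. The 2 higher probes were both of SLA-DQA1, and all 4 Tibetan arrays lay above all 4 Duroc arrays in these 2 probes alone, an order that 7.39% of all tested probes had. No member probe had all Tibetan arrays below all Duroc arrays, as 14.4% did.

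Probe A_72_P184916 read 14.91 and 14.84 in TH, 15.51 and 15.41 in TL, 10.75 and 10.90 in DH, and 11.37 and 11.38 in DL. Tibetan and Duroc arrays were at least 3.4 apart (log2), and within each breed the low-altitude arrays were the higher. Probe A_72_P341718 read 16.64 and 16.63 in TH, 16.82 and 16.90 in TL, 15.27 and 15.33 in DH, and 14.89 and 14.95 in DL. Here TL was the highest group and DL the lowest. Under scaling to the 75th percentile, TH minus TL turned positive in both probes, to 0.14 at A_72_P184916 and 0.44 at A_72_P341718.

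The breed effect was 4.07 ± 0.05 (16.8-fold, adjusted p = 1.45e-06 by limma) at A_72_P184916 and 1.63 ± 0.03 (3.1-fold, adjusted p = 2.6e-06) at A_72_P341718, and both passed with each array left out in turn. Within slides the former differed by 3.50 (TH minus DL) and 4.63 (TL minus DH), and the latter by 1.71 and 1.56. Both have the same target, a cDNA entry outside RefSeq that only the study's annotation names SLA-DQA1.

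The other 3 SLA-DQA1 probes, whose targets are RefSeq entries, gave breed effects of -0.13 (A_72_P244477), 0.29 (A_72_P227742) and 0.18 (A_72_P233002), none past the threshold. A_72_P244477 read 18.10 and 18.04 in TH, 17.93 and 18.06 in TL, 18.25 and 18.23 in DH, and 18.00 and 18.14 in DL, with all groups within 0.32 of each other. The positive sign at A_72_P227742 and A_72_P233002 turned to -0.07 and -0.19 under scaling to the 75th percentile. Over the 10 pairs of SLA-DQA1 probes, r across the 8 arrays ran from -0.68 to 0.97, whereas no pair of another member gene was below 0.71. SLA genes are highly polymorphic and have near-identical copies. Whether a probe binds the alleles of both breeds alike was not tested.

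The 5 lower probes were SLA-DRB1 A_72_P110316, A_72_P079096 and A_72_P246677 at -0.71, -0.65 and -0.60, SLA-DMA A_72_P025111 at -0.31 (adjusted p = 3.59e-05 by limma) and SLA-DQB1 at -0.30 (adjusted p = 7.52e-05). For SLA-DRB1 these rested on TL: TH minus DH was 0.00, 0.17 and 0.30 at the 3 probes, and TL minus DL was -1.42, -1.46 and -1.51. Of the members, 3 of 22 probes passed for TH against DH, all higher, against 9.33% of all probes (4.17% higher), and 9 passed for TL against DL, 2 higher and 7 lower, against 37.5% (16.0% higher and 21.5% lower). CD74 gave breed effects of 0.03 (95% interval -0.02 to 0.08, A_72_P223292) and -0.03 (95% interval -0.08 to 0.01, A_72_P395573), which became -0.29 and -0.34 under scaling to the 75th percentile, the latter past the threshold. With any 1 array left out, the breed effect was 4.03 to 4.11 at SLA-DQA1 A_72_P184916 and 1.61 to 1.65 at A_72_P341718. At SLA-DRB1 A_72_P110316, A_72_P079096 and A_72_P246677 it stayed between -0.74 and -0.59. Under scaling to the 75th percentile 13 probes passed, 2 higher and 11 lower. The share of all probes called in that setting is not given here, so this count is no result about the members.

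The altitude difference was wider in Tibetan than in Duroc pigs in 3 SLA-DRB1 probes and 1 TAP1 probe, a comparison in which interaction and slide cannot be told apart. The interaction, TH minus TL less DH minus DL, passed in 4 of 22 probes, all positive, against 28.4% of all probes called, 14.9% higher, with a median of 0.16 over the members and 0.21 over all probes. The share of members called, 18.2%, was thus below that of all probes. SLA-DRB1 A_72_P246677 differed by 2.06 in Tibetan and 0.25 in Duroc pigs, an interaction of 1.81 ± 0.05 (adjusted p = 6.45e-06 by limma). A_72_P079096 differed by 1.93 and 0.30, and A_72_P110316 by 1.75 and 0.34. TAP1 A_72_P223837 differed by 2.31 and 0.80, an interaction of 1.51 ± 0.03 (adjusted p = 3.07e-06). The second TAP1 probe, A_72_P172206, had an interaction of 0.86 that did not pass (adjusted p = 0.000861 by limma).

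SLA-DRB1 A_72_P187316 and A_72_P379003, of the same target, differed by 0.88 and 0.57 in Tibetan pigs and by 0.21 and 0.17 in Duroc pigs, and neither passed for the interaction. SLA-DMB ran the other way, by 0.24 in Tibetan and 0.73 in Duroc pigs, an interaction of -0.49 that did not pass (adjusted p = 0.000312 by limma). Both TL arrays were the lowest of the 8 in 13 of 22 member probes, where 36.9% of all tested probes had that order. With any 1 array left out, the interaction was positive in 14 to 16 of 22 probes. Scaling to the 75th percentile gave 12 calls, all positive, and a median of 0.71 against 0.33 over all probes. The share of all probes called in that setting is not given here, so this count is no result about the members. Of the members, 3 of 22 probes, all SLA-DRB1, passed for both breed and interaction, the study's criterion for differential expression, against 16.6% of all probes.

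Genes that work beside the members were counted from lists of the pathway. Of 22 other class I genes, 14 had a tested probe, and of their 21 probes 8 rose and 2 fell with altitude, with a median of 0.14, where 26.3% of all probes were called and 14.0% rose. Taking each gene at its brightest probe, 4 of 14 rose, all parts of the interferon-induced proteasome that cuts peptides for class I: PSMB8 by 0.72, PSMB9 by 0.60, PSMB10 by 0.54 and the activator PSME1 by 0.51. PSMB8 read 15.37 and 15.35 in TH, 13.97 and 14.08 in TL, 14.83 and 14.85 in DH, and 14.76 and 14.71 in DL, with TL lowest. The chaperone HSPA5 fell by 1.10, and CANX, another chaperone of the folding class I chain, differed between breeds by 1.51 with an interaction of -3.41. LNPEP, a trimming peptidase, was lower in Tibetan pigs, at -0.67, and SLA-3 passed for the interaction alone, at -0.75. The second SLA-3 probe, A_72_P270324, was nearly as bright and had an interaction of 0.0018 (adjusted p = 0.979 by limma). Class I heavy chains SLA-2, SLA-3, SLA-6, SLA-7 and SLA-8 gave altitude effects of 0.04 to 0.14 at their brightest probes, none past the threshold. Of these, the SLA-7 probe was well above background on only 2 of 8 arrays. The dimmer SLA-8 probe A_72_P070231 rose by 0.84.

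**Figure D5:**
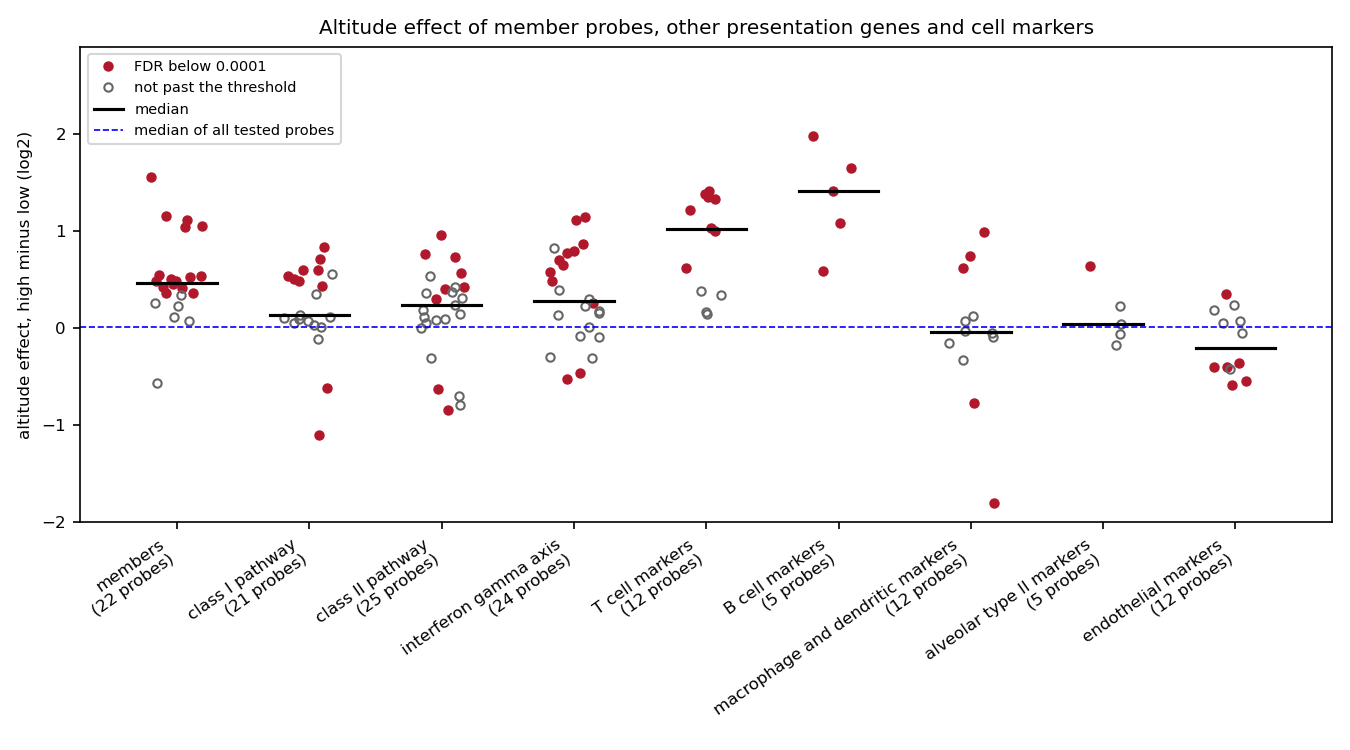
Altitude effect (vertical axis, high minus low, log2) of every probe of the members, of 3 pathway lists and of 5 marker lists; filled red points passed an FDR below 0.0001, bars are medians and the dashed line is the median of all tested probes. The medians stand at 0.47 for the members, 1.02 for T cell and 1.42 for B cell markers.

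Of 29 other class II genes, 16 had a tested probe, and of their 25 probes 7 rose and 2 fell with altitude, with a median of 0.24, beside the same 26.3% of all probes called and 14.0% higher. At the brightest probes, 6 of 16 genes rose. These were RFXAP, a subunit of the factor on class II promoters, by 0.73, the lysosomal proteases CTSL and CTSD by 0.97 and 0.57, MARCH1, which removes class II from the surface, by 0.30, and the costimulatory molecules CD80 and CD40 by 0.76 and 0.42. CTSL was high in TH alone, at 11.10 and 11.09 against 9.14 to 9.26 on the other 6 arrays, and RFXAP and CTSD were low in TL alone, with DH minus DL at -0.07 and 0.05. MARCH1 A_72_P183646 was also lowest in TL, with DH minus DL at -0.28, and its dimmer probe A_72_P245927 fell by 0.84. RFX1, a relative of the promoter factor, fell by 0.62. Its breed effect was 1.35 and its interaction -3.24. LGMN, another lysosomal protease, was higher in Tibetan pigs by 0.48. CIITA, the coactivator of class II transcription, was well above background on 2 of 8 arrays and did not pass for altitude (-0.69, adjusted p = 0.00127 by limma).

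Of 14 genes of the interferon gamma axis, 12 had a tested probe, and 10 of 24 probes rose and 2 fell with altitude, with a median of 0.28 (all probes, 26.3% called and 14.0% higher). At the brightest probes, the transcription factor IRF1 rose by 0.65, the chemokines CXCL9 and CXCL10 by 1.11 and 0.58, and the guanylate-binding proteins GBP1 and GBP2 by 0.87 and 0.78. The kinase JAK2 fell by 0.52. CXCL9 was high in DH alone, at 10.89 and 10.83, against 8.33 to 8.79 on the other 6 arrays. The receptor chain IFNGR2 was lower in Tibetan pigs, at -0.36. With 1 array left out, between 1 and 3 probes of each of the 2 pathway lists, and 1 to 4 of the interferon list, passed for altitude. Leaving out either TL array left 1 in each list, and either DL array left 1 in each pathway list and 3 in the interferon list.

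Markers of immune cells differed in their patterns. Of 11 T cell markers 8 were measured, and 8 of their 12 probes rose with altitude and 0 fell, beside 26.3% of all probes called and 14.0% higher. Their mean over the brightest probes was 11.25 to 11.29 on the high-altitude and 10.47 to 10.52 on the low-altitude arrays, in both breeds. CD3E rose by 1.34, CD8B by 1.36 and CD2 by 1.22, whereas CD3G, CD4 and CD5 did not pass for altitude at their brightest probes. CD3G differed by 0.145 there and rose by 1.41 at its dimmer probe A_72_P354513. TH minus TL was -0.03 at CD4 and -0.695 at CD5, and DH minus DL was 0.72 and 1.03. CORO1A, an actin-binding protein of leukocytes, rose by 0.73. Of 8 B cell markers 3 were measured, CD79A, MS4A1 and CR2, and all 5 probes rose for breed, altitude and interaction. Of all probes, 12.8%, 14.0% and 14.9% were called higher for these. Their mean was 13.05 and 13.07 in TH and 10.08 to 10.61 on the other 6 arrays.

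Of 16 macrophage and dendritic markers 8 were measured, of whose 12 probes 3 rose and 2 fell with altitude (all probes, 26.3% called and 14.0% higher). Their mean was 13.20 to 13.24 in Tibetan and 13.79 to 14.10 in Duroc pigs. XCR1, a receptor of cross-presenting dendritic cells, rose by 1.00 and CD14 by 0.62, whereas LYZ fell by 1.80 and FCGR1A by 0.77. Of 12 endothelial probes 1 rose and 5 fell, of 5 surfactant probes 1 rose (SFTPD, by 0.64) and 0 fell, and of 2 erythroid probes (HBB and AHSP) neither passed for altitude (adjusted p = 0.0519 and 0.591 by limma). The part of these cell types in the member results was not tested.

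The genes whose profile over the 8 arrays was most like that of the members were found among 4963 named probes of other genes. The mean of the brightest probes of the 7 class II genes was nearest to PDXK (Pearson r = 0.9968), and LOC595122 (r = 0.9958), ARHGAP30 (r = 0.9957) and LSM3 (r = 0.9945) were also among the nearest, while 8.42% of the searched probes had r above 0.9. PDXK, which activates vitamin B6, averaged 11.13 in DH, 10.67 in TH, 10.13 in DL and 9.54 in TL, the order of the class II mean. TAP1, the only class I member measured, was nearest to AEN, CENPM, LOC102166266, IFNAR1 and TUBB (r = 0.9975 to 0.9990), and 11.1% of probes had r above 0.9. IFNAR1, a receptor chain of type I interferons, averaged 12.43 in TH, 12.22 in DH, 11.82 in DL and 11.44 in TL, the order of TAP1.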

How the data were processed

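Total RNA of lung was hybridized to 1-color (Cy3) Agilent arrays, 2 per group, and groups were taken from the sample labels. The authors extracted spot intensity with Agilent Feature Extraction (9.1 per the labels, 10.7.3.1 per the file headers) and deposited a table of log2 values, normalized by RMA per the methods, whose columns share a median of 7.40. These deposited log2 values were the main values, since the choice of members named them. The table's ranks followed those of the processed signal (Spearman's rho at least 0.999992), and its exact steps are otherwise unknown. The table and scanner files were joined by probe.

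Of 43603 probes, those above background on 1 or more arrays (34406) entered a fit by limma 3.58.1 in R 4.3.3 as a two-way model of breed and altitude with their interaction over all 8 arrays, with Benjamini-Hochberg adjustment over all tested probes and an FDR below 0.0001. Intervals are 95%. The script was tested on simulated data. A probe was named from its RefSeq target (2683 of 3250 such probes matched) or the study's supplementary tables. All probes of member genes are given, and of listed genes the brightest probe where it passed for breed, altitude or interaction. SLA-8 A_72_P070231, SLA-3 A_72_P270324, MARCH1 A_72_P245927, CIITA, CD3G and the class I chains were named after their values were seen. The members and lists were chosen with earlier results of these data known. No sequences of the probes were used here. A B cell marker and a gene of like profile are not reported here. The number of arrays limits the precision.

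Alternatives used the processed signal scaled to its 75th percentile or by quantiles, the raw median signal with normal-exponential background correction (offset 0, or 50 with local background), other filters, variance models and thresholds, replicate number or slide as a block, and arrays left out. Python 3.11.15 read the tables (pandas 2.3.3, numpy 2.4.6) and drew the figures (matplotlib 3.10.9).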

Additional observations from a re-analysis of the deposited data

Results flagged for a closer look

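The altitude effect differed between breeds by the interaction test in 4 of 22 member probes, all wider in Tibetan pigs. This share of 18.2% was below the 28.4% of all probes called, with 14.9% of all probes called higher. The excess of the Tibetan over the Duroc difference was 1.42 (log2) at SLA-DRB1 A_72_P110316, 1.63 at SLA-DRB1 A_72_P079096, 1.81 at SLA-DRB1 A_72_P246677 and 1.51 at TAP1 A_72_P223837. Interaction and slide cannot be told apart, and the TL arrays stand apart in raw signal. Leaving out 1 array at a time, TAP1 A_72_P223837 passed in all 8 fits, SLA-DRB1 A_72_P246677 in 6, A_72_P079096 in 1 and A_72_P110316 in 0, where limma gave it adjusted p-values of 0.000139 to 0.000506.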

How the results depend on the processing

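Of 848 values of single probes recomputed under 18 alternatives, 642 kept their direction and side of the threshold, 164 fell below it, 27 passed it and 15 turned, and no altitude coefficient turned. The alternatives for the within-slide pairs and the pathway lists, and leaving out both TL arrays, were chosen after seeing the data. Where a setting changed a count below, the cause was not tested. Except for the other FDR thresholds, these counts stand without the share of all probes called in the same setting. They are no result about the members apart from that share. How many of all probes had an unadjusted p below 0.05 was not counted.

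Renormalized raw signal gave 4 breed, 6 altitude, 6 TH minus TL, 0 DH minus DL (21 of 22 at an unadjusted p below 0.05 by limma), 4 TH minus DL and 8 TL minus DH calls, and for altitude 5, 5 and 6 in the class I, class II and interferon lists. Scaling to the 75th percentile gave 13 breed, 12 interaction, 17 TL minus DL (2 higher, 15 lower), 8 DH minus DL, 18 class I and 17 class II calls, and 4 TH minus DH calls (3 higher, 1 lower). It moved the median of all probes from 0.21 to 0.33 for the interaction and from 0.11 to 0.23 for TH minus TL. Keeping only probes well above background on all 8 arrays gave 9 DH minus DL and 14 class II calls. Without moderated variances there were 3 breed, 1 DH minus DL, 5 TH minus DL, 6 class I and 5 class II calls. An intensity trend gave 13 breed, 5 TH minus DH, 10 DH minus DL, 13 TH minus DL and 15 class II calls.

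An FDR below 0.05 gave 17 breed, 17 interaction, 13 TH minus DH, 18 TL minus DL, 21 DH minus DL, 19 TH minus DL, 17 class I, 21 class II and 22 interferon calls, and one below 0.01 gave 15, 14, 8, 15, 19 and 18 for the same 6 member comparisons and 20 class II and 19 interferon calls, where 58.9% to 77.4% and 44.4% to 68.8% of all probes passed. Without both TL arrays, TH minus DH kept 1 call and DH minus DL 0 (21 at an unadjusted p below 0.05 by limma).

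The replicate numbers did not pair the arrays, with correlations of -0.0433 to 0.0914 between the groups' deviations. The replicate block left 2 breed, 3 altitude, 2 interaction, 0 TH minus DH (14 at an unadjusted p below 0.05 by limma), 4 TH minus TL, 0 DH minus DL (21), 1 TH minus DL and 8 TL minus DH calls, and 3, 2 and 4 in the class I, class II and interferon lists. Slide as an additive block spans the same model as the interaction, so it could not change the breed and altitude counts.

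With 1 array left out, calls ranged from 2 to 2 for breed, 1 to 4 for altitude, 1 to 3 for the interaction, 0 to 1 for TH minus DH, 4 to 6 for TL minus DL, 3 to 7 for TH minus TL, 0 to 0 for DH minus DL (20 to 22 at an unadjusted p below 0.05 by limma), 0 to 2 for TH minus DL, 5 to 9 for TL minus DH, 1 to 3 in each pathway list and 1 to 4 in the interferon list. The lone array was then assumed to vary like the other groups.

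Under scaling to the 75th percentile the breed coefficient turned to -0.28 at SLA-DRA A_72_P176171, -0.29 at CD74 A_72_P223292, and -0.0684 and -0.19 at SLA-DQA1 A_72_P227742 and A_72_P233002. The interaction turned to 0.40 at SLA-DRA A_72_P176171, 0.51 at CD74 A_72_P223292, and 0.37, 0.73 and 0.24 at SLA-DQA1 A_72_P244477, A_72_P184916 and A_72_P227742. It also turned without 1 array, ranging from -0.0982 to 0.0207 at SLA-DRA A_72_P176171 (above 0 without DL 1, TH 2 or DH 2) and from -0.1081 to 0.0414 at SLA-DQA1 A_72_P184916 (above 0 without TH 2, DH 2 or TL 1).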
